A study of Mus musculus with 4 samples.

Results

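The MHC class I presentation genes described here were 10 genes of 50600 measured, chosen by symbol: the heavy chain genes H2-K1, H2-D1 and H2-T23, the light chain gene B2m, the peptide transporter genes Tap1 and Tap2, the loading genes Tapbp and Calr, the trimming peptidase gene Erap1 and the regulator gene Nlrc5. They were read in mouse regulatory T cells, a suppressive CD4+ lineage that limits immune activation, as primary cells of strain C57BL/6NJ. RNA was sequenced from 4 libraries, numbered as biological replicates 1 to 4 of 1 group, with no treated or control arm. The labels give all 4 libraries 1 donor identifier, leave sex and age unrecorded and link a CD4+ T cell differentiation protocol, and output names in the file headers contain "activated" and "24h", so the cells may have been differentiated and activated in culture and are described here only as labelled. Nothing in the labels ties the libraries to separate animals or cultures, so a p-value here speaks only to how these libraries spread, part of which may be technical.

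A class I molecule is a heavy chain paired with beta 2-microglobulin, and it displays peptides cut from proteins inside the cell to CD8+ T cells. The proteasome cuts the proteins, the TAP transporter moves the peptides into the endoplasmic reticulum, Erap1 trims them, and tapasin and calreticulin hold the empty class I molecule until a peptide binds. NLRC5 is the class I transactivator: it is known to act at class I promoters together with factors bound to the X and Y boxes, and the upstream kappa B site and interferon-stimulated response element (ISRE) are the other known elements of these promoters.

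Short promoter stretches are shown for some of the class I genes that hold both motifs of a pair within 30 bases, since these motifs are the known elements named above. They were read from the RefSeq promoter table (GRCm38.p6), which matched 8 of the 10 genes; Tap2 and Nlrc5 had no entry. The first stretch runs from the kappa B core (GGGATTCCC) to the shifted ISRE core (GAANNGAAA, here on the opposite strand), and capitals mark these motifs. In H2-K1 it lies at chr17:34000429-34000457 on the minus strand, in H2-D1 at chr17:35262924-35262952, in H2-Q6 at chr17:35424678-35424706 and in H2-Q7 at chr17:35439023-35439050, each on the plus strand.
H2-K1: GGGATTCCCcatctccacagTTTCACTTC
H2-D1: GGGATTCCCcatctcctcagTTTCACTTC
H2-Q6: GGGATTCCCcatctccccagTTTCACTTC
H2-Q7: GGGATTCCCatctccccagTTTCACTTC
Between the motifs, which match by choice, the H2-K1 and H2-D1 stretches were identical at 10 of 11 bases. Among 32851 promoter windows of 250 bases upstream of a start site, 5 held the pair (0.0152%), and they belonged to these 4 genes. The kappa B core ended 116 bases upstream of the H2-K1 start site and 162 bases upstream of the RefSeq start site of H2-D1. The gene model in the deposited tables starts H2-D1 farther upstream, so this stretch lies inside it.

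The second stretch runs from the X2 box core (TGACG) to the Y box core (ATTGG, which reads CCAAT on the other strand), again in capitals. It lies at chr17:34000359-34000388 on the minus strand in H2-K1, and on the plus strand at chr17:35262993-35263022 in H2-D1, at chr2:122147609-122147638 in B2m and at chr17:37270188-37270217 in H2-M3.
H2-K1: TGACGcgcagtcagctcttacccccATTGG
H2-D1: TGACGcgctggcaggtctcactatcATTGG
B2m: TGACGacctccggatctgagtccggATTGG
H2-M3: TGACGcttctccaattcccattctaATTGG
Between the motifs the H2-K1 and H2-D1 stretches were identical at 13 of 20 bases and those of H2-K1 and B2m at 3 of 20, so apart from the motifs the B2m stretch was unlike that of H2-K1. This pair was found in 84 of the 32851 windows (0.256%) and in 3 of the 8 genes with a window. Searched singly on both strands, ATTGG occurred in 7 of the 8 genes and in 33.8% of all windows, TGACG in 4 of 8 and 17.8%, the ISRE core GAAANNGAA in 3 of 8 and 7.13%, GGGATTCCC in 2 of 8 and 0.301%, and GAANNGAAA, which can overlap GAAANNGAA, in 2 of 8 and 6.31%. The window of Tapbp, counted for ATTGG, lies inside the deposited gene model, with its RefSeq start site 3579 bp from the start of that model. Heavy chain genes share ancestry, so their windows are not independent of each other. The shifted ISRE core and the pairs were chosen after the sequences were seen, and a match describes letters and does not show binding.

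The libraries held 38590127 to 93035969 fragments assigned to genes. Levels are given in TPM, which divides counts by gene length and then sets each library to the same sum. Of 7 T cell and regulatory T cell markers, 7 had a mean of at least 1 TPM and 6 at least 10 TPM, with Foxp3, the lineage factor of regulatory T cells, at 92.9 to 125 TPM and Ikzf2 lowest at a mean of 4.32 TPM. Of 14 markers of other cells, 3 had a mean of at least 1 TPM (Adgre1, Cd8a and Cd79a) and 0 at least 10 TPM. The 14 summed to 3.04 to 5.93 TPM, with Lyz2, Ncr1, S100a8 and Hbb-bs at 0 counts in all 4 libraries. Replicate 1 stood apart in Gm42418, a gene that overlaps ribosomal RNA sequence, with 35490 TPM against 1324 to 3197 in the other 3 libraries, and protein-coding genes made 88.2% of its TPM against 95.6 to 96.6%. Libraries 1 and 2 held the X-inactivation RNA Xist at 100.4 and 88.7 TPM and the Y-linked Ddx3y at 0.159 and 0.101 TPM, and libraries 3 and 4 held Xist at 0.716 and 0.603 TPM and Ddx3y at 46.1 and 40.6 TPM, although the labels give 1 donor identifier for all of them. Repeats of 1 sample would not differ in this way, so the libraries were not all technical repeats of 1 sample. Each SD over the 4 libraries and the variation test below pool both pairs of libraries as 1 group. In bulk RNA, fewer cells of a type and less RNA per cell cannot be told apart.

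The 10 genes together took 0.318% ± 0.0144 (SD, n = 4) of all assigned fragments. Their levels fell in 3 steps: B2m, Calr, H2-K1 and H2-D1 between 722 and 1596 TPM, H2-T23, Tap1, Tap2, Erap1 and Tapbp between 72.7 and 99.6 TPM, and Nlrc5 between 11.95 and 17.4 TPM. The median of their means was 93.7 TPM, and over the 10383 protein-coding genes with a mean of at least 1 TPM it was 30.96 TPM.

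**Figure D1:**
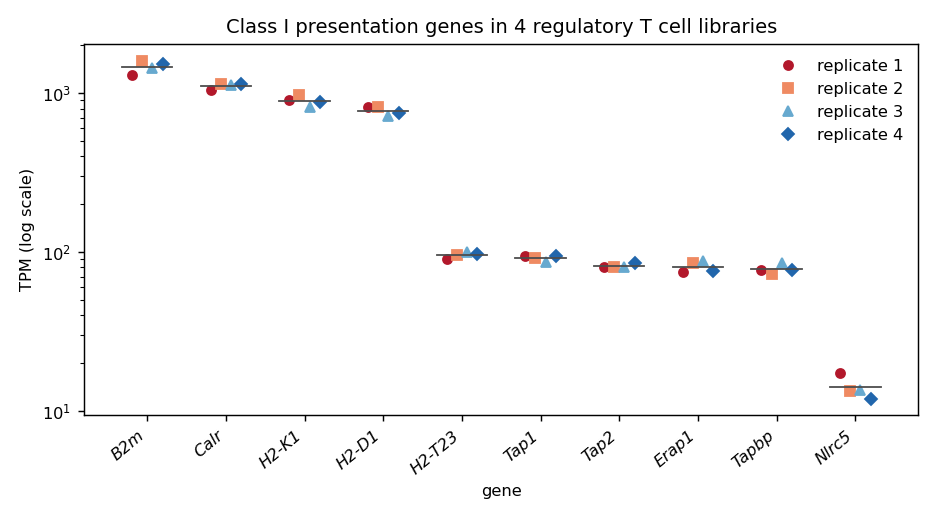
TPM on a log axis for the 10 class I presentation genes, with 1 marker for each of the 4 libraries and a bar at the mean. B2m, Calr, H2-K1 and H2-D1 sit at 722 TPM or above in every library, 5 genes sit between 72.7 and 99.6 TPM, and Nlrc5 sits between 11.95 and 17.4 TPM with replicate 1 highest.

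Among the heavy chains, H2-K1 (ENSMUSG00000061232.15, chr17:33996017-34000333, minus strand, mm10), which encodes the classical K molecule, was measured at 911, 973, 816 and 884 TPM in replicates 1 to 4 (896 ± 65.3, SD, n = 4). Replicate 2 was highest and replicate 3 lowest. H2-D1 (ENSMUSG00000073411.11, chr17:35262730-35267499, plus strand), which encodes the classical D molecule, stood at 819, 818, 722 and 746 TPM (776 ± 49.7, SD, n = 4). Its ranges overlapped those of H2-K1 across libraries, although H2-K1 was higher than H2-D1 within each of the 4 libraries, by 1.11 to 1.19-fold. H2-T23 (chr17:36029773-36032855, minus strand), which encodes Qa-1, the nonclassical molecule that presents leader peptides to NKG2 receptors, was measured at 89.9, 95.9, 99.6 and 97.8 TPM (95.8 ± 4.25, SD, n = 4). The step from H2-D1 down to H2-T23 was 3.02 ± 0.15 on the log2 scale (SD, n = 4), with no overlap between their ranges.

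The light chain gene B2m (ENSMUSG00000060802.8, chr2:122147686-122153083, plus strand), whose product every classical heavy chain needs to fold, was the highest of the 10, at 1295, 1596, 1439 and 1532 TPM (1466 ± 131, SD, n = 4). Replicate 1 was lowest. It lay between the 99.41 and 99.52 percentile of protein-coding genes with at least 1 TPM. Within a library H2-K1 was 0.567 to 0.704 times B2m, H2-D1 was 0.487 to 0.632 times B2m, and H2-T23 was 0.0601 to 0.0694 times B2m. The sum of H2-K1 and H2-D1 was 1.34, 1.12, 1.07 and 1.06 times B2m in replicates 1 to 4, a mean log2 ratio of 0.19 ± 0.15 (SD, n = 4). With 4 libraries an exact sign-flip permutation test (two-sided) cannot go below p = 0.125, the value that every ratio with 4 libraries on 1 side of 0 reached, so none of the 16 gene pairs compared could pass 0.05.

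The ratios between genes rest on the length used. The deposited exon union is 2608 bp for H2-K1, 2579 bp for H2-D1 and 860 bp for B2m, and the longest protein-coding transcript is 1619, 2102 and 860 bp. With the transcript length, an alternative added after the data were seen, the log2 ratio of H2-K1 to B2m moved from -0.71 to -0.02 and that of H2-K1 plus H2-D1 to B2m from 0.19 to 0.71. Calr then ranked above B2m. The log2 ratio moved from -3.93 to -2.96 for H2-T23 to B2m, from -0.24 to -0.94 for Tapbp to Tap1, from -1.38 to -0.58 for Psmb8 to Psmb5 and from -1.30 to -2.48 for Psmb10 to Psmb7. With each exon union shortened by 200 bp, for the fragment length, the log2 ratio of the summed heavy chains to B2m turned to -0.07.

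The transporter genes lie in the class II region, with Psmb8 between them. Tap1 (chr17:34187553-34197225, plus strand) was measured at 94.2, 91.1, 86.4 and 94.5 TPM (91.5 ± 3.75, SD, n = 4). Tap2 (chr17:34203527-34216321, plus strand), which encodes the other chain of the TAP heterodimer, stood at 80.9, 80.2, 80.0 and 85.2 TPM (81.6 ± 2.45, SD, n = 4). Their ranges did not overlap in TPM over all features. They did with TPM over protein-coding genes alone, with Tap1 from 89.43 and Tap2 up to 91.74. With FPKM and TMM factors, a scaling described below, Tap1 from 83.12 and Tap2 up to 85.87 also overlapped. Tap1 was 1.08 to 1.16 times Tap2 within a library, a log2 ratio of 0.17 ± 0.05 (SD, n = 4). With the transcript length this log2 ratio was 0.92. The start of Tap1 overlaps the start of Psmb9, an immunoproteasome subunit gene on the opposite strand, by 212 bp, and the stated counting used strand. Tap1 was 2.45 to 3.27 times Psmb9 within a library.

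Of the loading genes, Tapbp, which encodes tapasin, the bridge between TAP and the empty class I molecule (chr17:33915899-33929288, plus strand), was measured at 77.0, 72.7, 85.3 and 76.5 TPM (77.9 ± 5.32, SD, n = 4). Replicate 3 was highest. Tapbp was 0.818, 0.798, 0.987 and 0.809 times Tap1 in replicates 1 to 4, nearest to equal in replicate 3. Calr, the gene of the chaperone calreticulin, which also folds many glycoproteins outside the class I pathway (chr8:84841850-84846934, minus strand), stood at 1039, 1143, 1128 and 1150 TPM (1115 ± 51.2, SD, n = 4). It was 13.2 to 15.7 times Tapbp, and its range lay below that of B2m and above that of H2-K1.

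The trimming peptidase gene Erap1 (chr13:74639872-74691875, plus strand), whose product shortens peptides in the endoplasmic reticulum, was measured at 74.4, 85.1, 87.2 and 76.4 TPM (80.8 ± 6.33, SD, n = 4). Replicates 2 and 3 were higher than 1 and 4. Its range overlapped those of both Tap2 and Tapbp, and it was 0.79 to 1.01 times Tap1, above Tap1 in 1 of 4 libraries (exact sign-flip permutation p = 0.25). The longest transcript of Erap1, 5644 bp, is longer than its deposited exon union of 4014 bp, and with it the mean was 41.8 TPM and the log2 ratio to Tap1 moved from -0.18 to -1.57. With the deposited lengths the order of Tap2, Erap1 and Tapbp was not resolved by these libraries, and H2-T23 and Tap1 overlapped likewise.

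Nlrc5 (ENSMUSG00000074151.13, chr8:94434356-94527272, plus strand), the class I transactivator gene, was the lowest of the 10, at 17.4, 13.3, 13.6 and 11.95 TPM (14.1 ± 2.33, SD, n = 4). Replicate 1 stood above the other 3 libraries. Its counts were 1785, 1497, 1623 and 2798 fragments. It lay between the 27.7 and 36.6 percentile of protein-coding genes with at least 1 TPM, the lowest of the 10. Ciita, the related transactivator of class II genes, was measured at 0.393, 0.301, 0.217 and 0.0759 TPM from 25, 21, 16 and 11 fragments, so that Nlrc5 was 44.2, 44.1, 62.8 and 157 times Ciita in replicates 1 to 4.

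**Figure D2:**
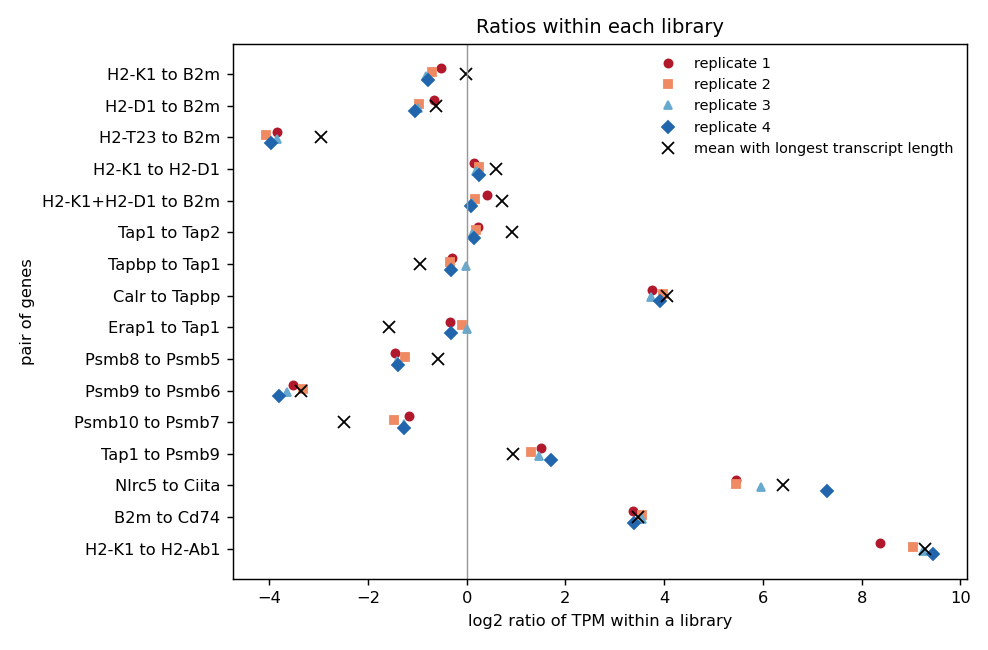
Log2 ratio of TPM within each of 4 libraries (coloured markers) for the 16 pairs of genes, with a black cross at the mean obtained with the longest protein-coding transcript length. H2-K1 to B2m moves from -0.71 to -0.02 and Tap1 to Tap2 from 0.17 to 0.92 with that length, while Nlrc5 stays above Ciita and H2-K1 above H2-Ab1 in every library.

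Variation between libraries was tested with edgeR's quasi-likelihood dispersion, which asks whether a gene varies more than genes of like abundance, with Benjamini-Hochberg adjustment over all 12396 genes tested. It called 0 of the 10 genes at an adjusted p under 0.05, beside 58 of all genes tested (0.468%). At an unadjusted p under 0.05 there were 3 of 10, beside 5.332% of all genes tested. These were Nlrc5, H2-D1 and H2-K1, with adjusted p of 0.152, 0.847 and 0.850 in the edgeR fit. The unadjusted count was 1 without replicate 1, 1 without replicate 3, 4 without replicate 2 and 3 without replicate 4. With the size factors of DESeq2 in the same fit the counts were again 0 called and 3 unadjusted. The other 7 genes had adjusted p between 0.985 and 0.999 in the edgeR fit.

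Nlrc5 turned on single libraries and on the filter. Its edgeR adjusted p was 0.0412 with no filter on low counts, 0.00461 without replicate 2 and 0.997 without replicate 1, the library that was highest for Nlrc5 and stood apart in Gm42418. The part of that library's Gm42418 level in the Nlrc5 value was not tested. The coefficient of variation (CV) across libraries ran from 3.00% for Tap2 to 16.6% for Nlrc5, with a median of 6.617% beside 8.096% over the protein-coding genes with a mean of at least 1 TPM. Counting error alone gives 0.526% for Calr to 2.58% for Nlrc5 at the library with the fewest fragments. On the TPM scale the CV of each of the 10 genes was above its counting error, but for H2-T23 this rests on the scaling: its SD fell from 4.25 on a mean of 95.8 TPM to 1.04 on a mean of 95.7 with FPKM and TMM factors, below its counting error of 1.78%.

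The other class I heavy chain and class I-like genes were mostly lower. Of 22 listed, 20 had a row, 10 reached a mean of 1 TPM and 6 reached 10 TPM, with a list median of 1.091 TPM. H2-Q8 and H2-Q9 had no row under those symbols, so no level is given for them. H2-Q4 was the highest at 109.1, 106, 87.6 and 93.7 TPM (99.1 ± 10.2, SD, n = 4), a level near that of H2-T23. It was followed by H2-T22, a nonclassical gene, at 51.9 ± 3.76 TPM and H2-Q7, a Qa-2 gene, at 36.3 ± 15.3 TPM (SD, n = 4). H2-M3, which presents formylated peptides, was measured at 21.8 ± 2.10 TPM (SD, n = 4). H2-Q2, at 0 to 4 fragments a library, was the lowest gene above 0. H2-Q1, H2-T3, H2-M2, H2-M5, H2-M9, Fcgrt and Hfe had 0 counts in all 4 libraries, which allows up to 0.0322 to 0.0777 CPM, fragments scaled to a common total, from the deepest to the shallowest library.

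H2-Q6 and H2-Q7, both Qa-2 genes, were the heavy chain genes that passed the variation test, 2 of 10 tested in that list. Among all 12396 genes tested, 58 passed (0.468%). H2-Q6 stood at 31.0, 39.3, 6.43 and 11.6 TPM (edgeR adjusted p = 9.81e-09) and H2-Q7 at 46.9, 51.8, 21.4 and 24.9 TPM (edgeR adjusted p = 2.336e-07), with replicates 1 and 2 both above replicates 3 and 4. H2-Q4 had the same order with an edgeR adjusted p of 0.595, and 0.0418 without replicate 2. Reads that fit several places did not count, and the sequence these genes share is large: 32% of the distinct 50-base words of H2-Q6 and 26.4% of those of H2-Q7 also occurred in transcripts of another gene, against 9.63% for H2-K1, 12.8% for H2-D1, 13.6% for H2-T23 and 0% for B2m, Nlrc5 and Erap1. The share was 36.4% for H2-Q5, 34.5% for H2-T22 and 32.9% for H2-T10, and H2-T10 and H2-T22 shared mostly with each other. Counts of H2-Q genes, H2-T10 and H2-T22 are therefore uncertain, and those of H2-K1, H2-D1 and H2-T23 may be understated.

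H2-K1 and H2-D1 followed this library order as well. Counted over the 13 heavy chain and class I-like genes that were tested, replicates 1 and 2 were both above replicates 3 and 4 in 8 of 13: H2-K1, H2-D1, H2-Q4, H2-Q5, H2-Q6, H2-Q7, H2-T10 and H2-M3. Among all 12396 genes tested, 7.25% had that order and 26.9% had the opposite one. H2-T23 was the 1 gene of the 13 with the opposite order. Of the 10 class I presentation genes, 2 had the first order and 1 the opposite one, since B2m, Calr, Tap1, Tap2, Tapbp, Erap1 and Nlrc5 were mixed.

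The order was noticed after the values were seen, and no test was made of it. H2-Q genes that share sequence are not independent, and neither are H2-T10 and H2-T22. The scaling matters for the background: with TPM over protein-coding genes alone, which moved the median of all genes by 0.182 (log2) in replicate 1 and 0.049 to 0.066 in the others, 9 of 13 had the first order beside 15.8% of all genes, and H2-T23 was mixed. With FPKM, fragments scaled for gene length and library size, and edgeR's TMM factors, 8 of 13 had it beside 14.7% of all genes. These were not the same 8 as with TPM: H2-T22 came in and H2-M3 fell out. In H2-M3 replicates 2 and 4 were at 22.26 and 22.15 TPM, and at 21.93 and 21.96 with FPKM and TMM factors. H2-K1 and H2-D1 kept the order under all 3 scalings. The same pairs of libraries differed in Xist and Ddx3y, as given above, and the part of that difference in the class I order was not tested.

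**Figure D3:**
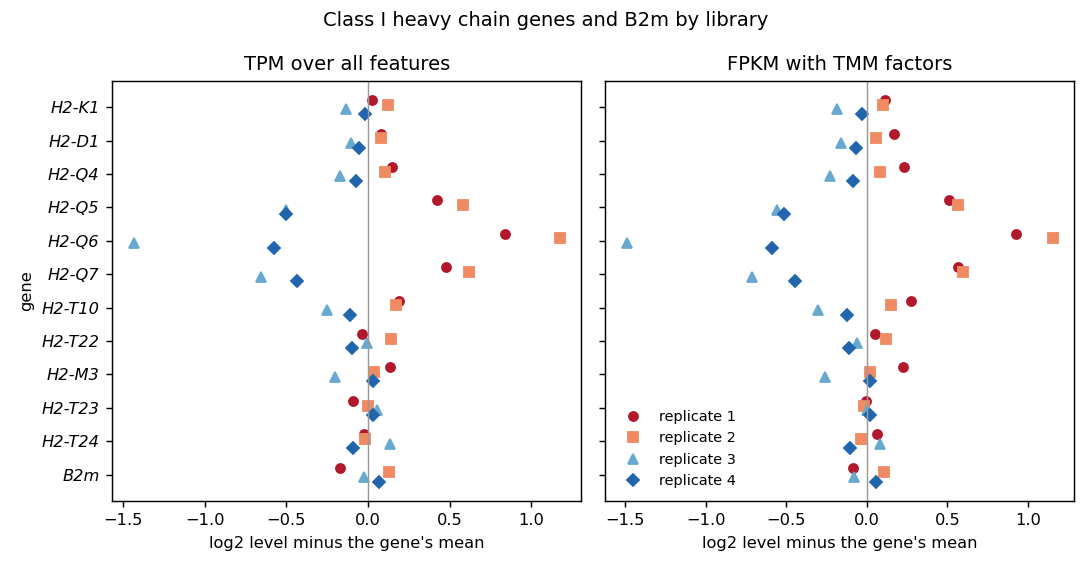
Log2 level minus the gene's own mean over 4 libraries for 11 heavy chain genes and B2m, from TPM (left) and from FPKM with TMM factors (right). H2-Q5, H2-Q6 and H2-Q7 spread widest with replicates 1 and 2 to the right, H2-K1, H2-D1 and H2-Q4 show the same order over a narrower range, and B2m does not.

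Upstream of the transporter, the proteasome list (9 genes, all at 10 TPM or more, median 364 TPM) was led by the activator Psme3 at 761 ± 45.1 TPM, with the constitutive catalytic subunits Psmb5 at 416 ± 6.58 and Psmb6 at 387 ± 16.3 TPM next (SD, n = 4), and Psmb9 lowest at 32.7 ± 3.43 TPM. Each inducible immunoproteasome subunit was below its constitutive counterpart in all 4 libraries. Psmb8 was 0.367 to 0.423 times Psmb5, Psmb9 was 0.0711 to 0.101 times Psmb6 and Psmb10 was 0.358 to 0.445 times Psmb7. None of the 9 proteasome genes passed the variation test (edgeR, 0 called and 0 at an unadjusted p under 0.05). With no division by length, the log2 ratio of Psmb8 to Psmb5 turned from -1.38 to 0.28.

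The cytosolic and endosomal peptidases that trim or destroy peptides were all at 10 TPM or more (7 of 7, median 72.7 TPM), led by Lap3 at 139 ± 7.33, Thop1 at 122 ± 5.39 and Nrd1 at 95.1 ± 6.57 TPM (SD, n = 4), with Npepps lowest at 54.4 ± 5.00 TPM. Loading partners and folding genes of the endoplasmic reticulum were 9 of 9 at 10 TPM or more (median 223.7 TPM). Pdia3, the gene of ERp57, which joins tapasin in the loading complex, was highest at 599 ± 44.3 TPM, then the chaperone genes Hspa5 at 589 ± 38.7 and Canx at 460 ± 22.2 TPM (SD, n = 4). Tapbpl, the gene of the tapasin-related editor TAPBPR, was lowest at 37.8 ± 1.34 TPM, below Tapbp in every library. Neither list had a gene called by the variation test (edgeR, 0 of 7 and 0 of 9, each also 0 at an unadjusted p under 0.05).

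The regulators were 18 of 18 at a mean of 1 TPM or more and 15 of 18 at 10 TPM or more (median 30.3 TPM). Nfkb1 and Rela, subunits of NF-kappa B, were highest at 309 ± 9.99 and 160 ± 14.1 TPM, followed by Nfya, a subunit of the factor that binds the Y box, at 63.6 ± 1.41 TPM (SD, n = 4). Stat2, of the interferon signalling pathway, was lowest at 7.64 ± 0.254 TPM. The X box factor genes that NLRC5 is known to work with were all present, Rfxap at 22.9 to 33.5 TPM, Rfx5 at 15.0 to 17.9 TPM and Rfxank at 8.32 to 9.97 TPM. The variation test called 0 of 18 regulators (edgeR, 2 at an unadjusted p under 0.05, beside 5.332% of all genes tested). Over all the pathway lists, the 10 genes aside, it called 2 of 60 tested, H2-Q6 and H2-Q7, beside 0.468% of all genes tested.

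The class II counterparts, which present peptides from outside the cell and mark antigen-presenting cells, were lower. Of 9 genes, 7 had a mean of at least 1 TPM and 2 at least 10 TPM (median 1.917 TPM). Cd74, the invariant chain gene, was highest at 132 ± 11.0 TPM, then H2-DMa at 18.4 ± 0.998 and H2-Oa at 7.96 ± 1.86 TPM (SD, n = 4), and H2-DMb1 was lowest at 0.138 ± 0.0409 TPM from 2 to 6 fragments a library. B2m was 10.3 to 11.8 times Cd74. H2-K1 was 334 to 700 times H2-Ab1, the class II beta chain gene, which rested on 31 to 57 fragments a library. The 14 markers of other cells, whose sum is given above, had means from 0 to 1.399 TPM: among those of B cells and myeloid cells Adgre1 and Cd79a were highest at 1.399 and 1.03 TPM, Ms4a1, Itgam and Itgax were at 0.0573, 0.0308 and 0.0278 TPM, and Lyz2 and S100a8 were at 0 counts. Their part in the class II values was not tested. The variation test called 0 of the 7 class II genes tested (edgeR, 1 at an unadjusted p under 0.05, beside 5.332% of all genes tested).

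**Figure D4:**
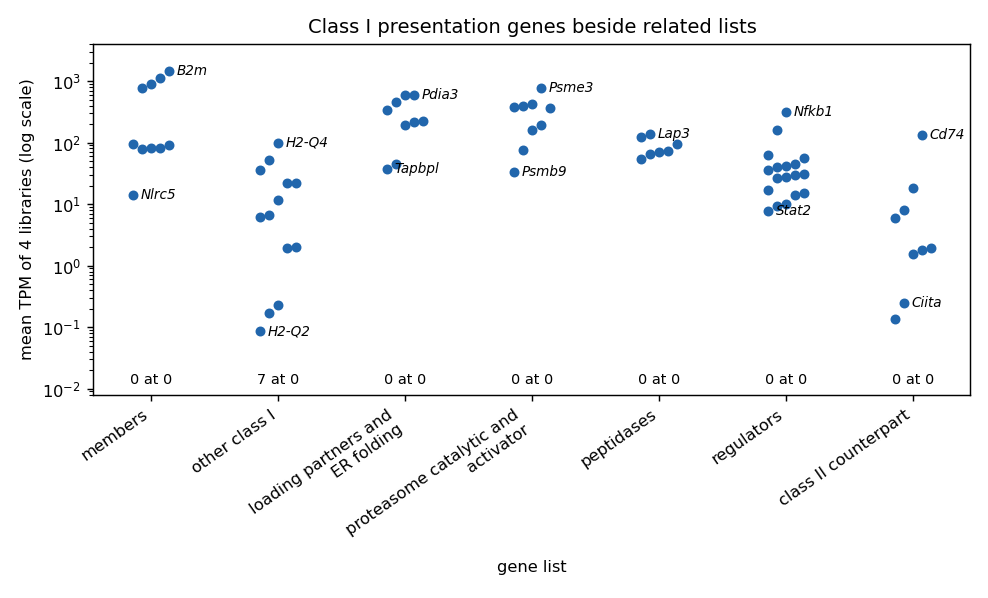
Mean TPM of 4 libraries on a log axis for each gene of 7 lists, with the number of genes at 0 counts below each list. The highest gene of each list is named, with a low one in most lists. The lowest class II gene, H2-DMb1, and the lowest peptidase gene, Npepps, are not named. The 10 class I presentation genes (left) span 14.1 to 1466 TPM, the proteasome and folding lists lie at 10 TPM or above, and most class II genes lie below 10 TPM.

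Position and shared sequence were read for the 10 genes as well. On chromosome 17, 6 of the 10 lie within 2116957 bp (33915899 to 36032855), the H2 region, and B2m, Calr, Nlrc5 and Erap1 lie on chromosomes 2, 8, 8 and 13. The gap between Tap1 and Tap2 is 6301 bp and holds Psmb8, which lies 495 bp from Tap1. The first 2 of these 6 genes along the region, Tapbp at 77.9 TPM and H2-K1 at 896 TPM, differed widely in level. Whether other genes lie between them was not examined. On the same strand, 1 of the 10 overlapped another gene's exons, Tapbp with 61 bases of Zbtb22 (1.85% of its exon bases), and reads there did not count for either gene.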

How the data were processed

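The authors counted RNA-seq fragments with featureCounts 1.4.6-p4 over GENCODE mouse release 13 exons with strand setting 2, per the file headers; the deposited values are raw counts on mm10, and the deposited length is the union of a gene's exons. Per the same headers, reads that map to several places or overlap several genes were not requested. No aligner is named in the labels or headers. Gene names came from release 21 (50376 of 50600 IDs matched). TPM was computed from counts and exon union length over all features. Variation was tested with edgeR 4.0.16 (R 4.3.3), intercept only, TMM, filterByExpr, robust prior, on all genes. The test was also run on simulated data with 1 dispersion for all genes and 1 library changed in a gene. That run does not cover a split of 2 libraries against 2, as in H2-Q6 and H2-Q7. DESeq2 1.42.0 gave alternative size factors. No 2 libraries agreed within sampling noise (chi-square over degrees of freedom 12.2 to 137 for the pairs). Floors are 3 counts and cover counting error only. Named genes were all 10 members, and the 3 highest, the lowest and any called gene of each other list; H2-M3, the single markers and the X box factors were added after their values were seen. Members and lists were chosen with earlier results of these data known. Promoters came from RefSeq (GRCm38.p6). Longest transcript lengths came from release 21.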

Additional observations from a re-analysis of the deposited data

Results flagged for a closer look

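Of 91 values tested for a library far from the other 3, 4 were flagged, and chance flags about 1 in 20 groups. Tap2 was highest in replicate 4 at 85.22 TPM, against 80.04 to 80.89 TPM in the other libraries, but with TPM over protein-coding genes and with FPKM and TMM factors replicate 1 was highest (91.74 against 88.23 and 85.87 against 84.5 in replicate 4). Rfx5 was lowest in replicate 1 at 14.97 TPM, against 17.43 to 17.86 TPM, a gap of 0.852 of the range, which was 0.921 with FPKM and TMM factors but 0.714, under the critical value, with TPM over protein-coding genes. Rfxank was lowest in replicate 1 at 8.318 TPM, against 9.771 to 9.965 TPM, a gap of 0.882 of the range, which was under the critical value with both other scalings (0.68 and 0.574). The log2 ratio of Tapbp to Tap1 was nearest to 0 in replicate 3 at -0.02, against -0.33 to -0.29 in the other libraries.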

How the results depend on the processing

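No paired analysis was possible because the 4 libraries form 1 group and no comparison was made between groups. The number of the 10 genes called for variation was 1 with no filter on low counts, Nlrc5, and 0 with the other scalings and the prior without the robust option; leaving out 1 library gave 0 to 1. Over all genes the number called was 58, against 110 with no filter, 36 without the robust option and 37 without replicate 1. With no division by length, the log2 ratio was 0.892 for H2-K1 to B2m, 0.670 for H2-D1 to B2m, 0.276 for Psmb8 to Psmb5, 1.785 for the summed heavy chains to B2m and 0.700 for Tap1 to Tap2. With 200 bp taken off each length the summed heavy chains to B2m stood at -0.074. With the longest coding transcript they stood at 0.711 and Tap1 to Tap2 at 0.921. These moves follow from the lengths. Over the 16 ratios and their alternatives, 112 values moved by less than 1 SD, 28 moved further with no change of side and 4 changed side. Many of the 112 could not have moved further, since scaling a whole library leaves a ratio within it as it was. Leaving out 1 of 4 libraries likewise cannot move a mean by 1 SD. The larger moves all came with changed lengths. With no division by length 11 moved and 3 changed side, and with 200 bp taken off 5 and 1. With the longest coding transcript 12 moved. Depth limits H2-Q2, Ciita and H2-DMb1, at 0 to 25 fragments a library, and among others also Cd1d2 at 0 to 7 and H2-Q10 at 1 to 31.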
